A study of Trichoderma reesei with 12 samples.

Results

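Loss of the kinase gene tmk3 was accompanied by higher transcript levels of 86 gene models of the filamentous fungus Trichoderma reesei in constant darkness and in constant light alike. These 86 are 0.791% of the 10879 identifiers in the count table. They were chosen by their measured levels, in CPM, which are counts per 1000000 counts of the library. The highest of the 4 group means had to be at least 10 CPM. The deletion ratio, which is the mean of the deletion strain plus 1 CPM over the mean of the parent plus 1 CPM, had to be at least 2.5 in darkness and in light. The light ratio, formed in the same way from light over darkness, had to lie above 1/3 and below 3 in both strains. Identifiers among the first or last 50 numbers of a letter series were left out. Of the 6924 identifiers away from these ends that reached 10 CPM in some group, 1.24% met all conditions. Because the same values chose the genes, every level, ratio and call for these contrasts below is a description of the 86 and not a test of them.

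Tmk3 is the T. reesei member of the Hog1 family of mitogen-activated protein kinases. Kinases of this family are the last step of a phosphorylation cascade that responds to high osmolarity, and once active they alter transcription in the nucleus. In T. reesei, Tmk3 is known for roles in osmotic resistance, cell wall integrity and cellulase production. T. reesei itself is a soil fungus used to make cellulases, and light is a known signal for its metabolism and development.

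All strains were in the QM6a background and grew for 96 h on minimal medium with cellulose, and RNA came from mycelium. The parent, labelled WT, is QM6aΔku80, which lacks a gene of non-homologous end joining. The deletion strain is QM6aΔku80Δtmk3, so both strains lack ku80. Each strain was kept in constant darkness (DD) or constant light (LL), which makes 4 groups of 3 libraries. The labels describe no complemented strain and do not say how many transformants stand behind the deletion strain, so loss of tmk3 and any other difference between the strains cannot be told apart. Separate cultures for the 3 libraries of a group are not mentioned, so their spread, on which p-values rest, may be technical.

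Library totals ran from 11599300 to 17702344 counts, and 3 counts, the limit that a count of 0 allows, equalled between 0.169 and 0.259 CPM. Replicate 2 of the dark parent had the lowest TMM scaling factor, 0.761, against 0.925 and 0.975 for the others of its group. The identifiers carry a series letter, a number and a final W or C, with no gene names: 0 of them matched the 9116 genes of the reference table used here. The tmk3 transcript was therefore not read, pathway lists were not applied, no function is given for any identifier, and no sequences are shown. Gene lengths were not available either, so CPM values are compared between groups for the same gene and not between genes.

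The deletion ratios of the 86 genes ran from 2.59 to 47.86 in darkness, with a median of 4.47, and from 2.5 to 49.70 in light, with a median of 3.94. In darkness 41 genes had a ratio of at least 5, in light 33, and in both conditions 26. Ratios of at least 10 in both conditions were found for 5 genes. The smaller of the 2 ratios was below 3 for 25 genes, which therefore lie near the threshold. Together the 86 genes took 0.295% ± 0.108 of all counts of the dark parent and 1.27% ± 0.0813 of those of the dark deletion strain (SD, n = 3 each). In light they took 0.211% ± 0.012 in the parent and 0.902% ± 0.119 in the deletion strain. A large part of these counts belonged to a single gene, TrB1283W, with 62.8% of the members' counts for the dark parent and 45.9% for the dark deletion strain.

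**Figure D1:**
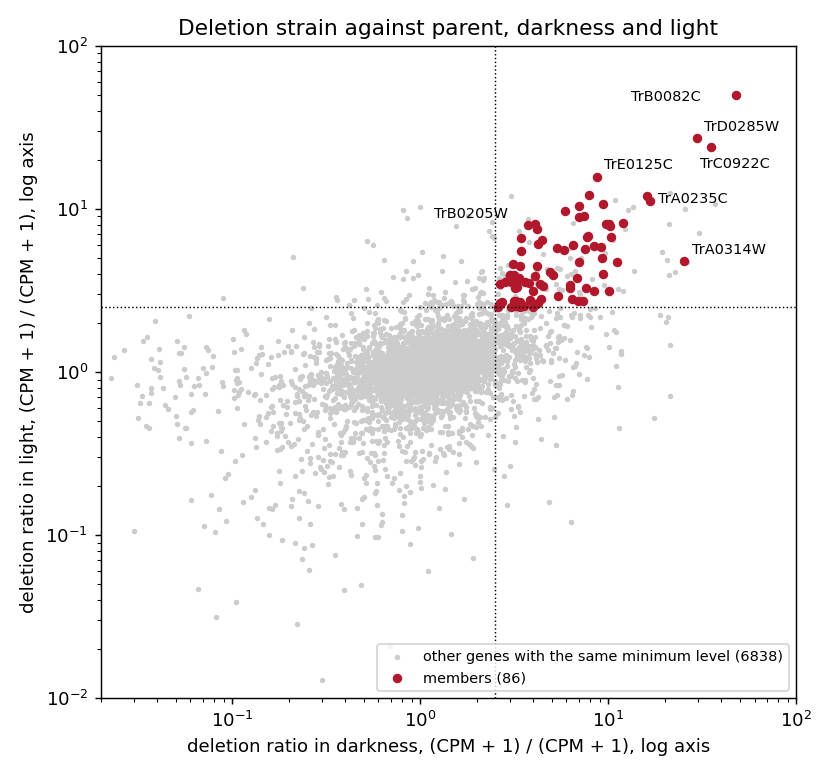
Deletion ratio in darkness (x axis) against deletion ratio in light (y axis), both on log axes, for the 86 members in red and for other genes with the same minimum level away from series ends in grey. Dotted lines mark the threshold of 2.5. Grey points above both lines have a light ratio outside the allowed range. Among the members, TrB0082C lies highest on both axes at 47.86 and 49.70.

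In every member, all 3 deletion libraries lay above all 3 parent libraries in darkness (86 of 86) and in light (86 of 86). Among all 8998 genes tested, 34.8% and 34.1% did so. For 83 members even the lowest of the 6 deletion libraries exceeded the highest of the 6 parent libraries across both light conditions, against 10.1% of genes tested. The 3 exceptions were TrB0193W, TrD0989C and TrE0222W. In edgeR's fit of all 12 libraries, 86 members were called higher in darkness, where 19.1% of tested genes were, and 85 in light, where 10.8% were. Both calls were made for 85 members and for 6.69% of tested genes. The rule used these contrasts, so the counts say nothing beyond the choice of the genes. The fitted log2 fold changes had a median of 2.55 in darkness and 2.11 in light, with TMM scaling, against -0.07 and -0.00 over all genes tested. With libraries scaled by total count alone, as in the rule, the medians over all genes were 0.22 and 0.11. Under that scaling the calls in darkness split into 2484 higher and 1038 lower over all genes, in place of 1723 and 1941 under TMM. The members' ratios in darkness therefore include a general shift of the scaling. With TMM-scaled sizes in the rule, 70 genes were chosen, 69 of them among the 86.

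**Figure D2:**
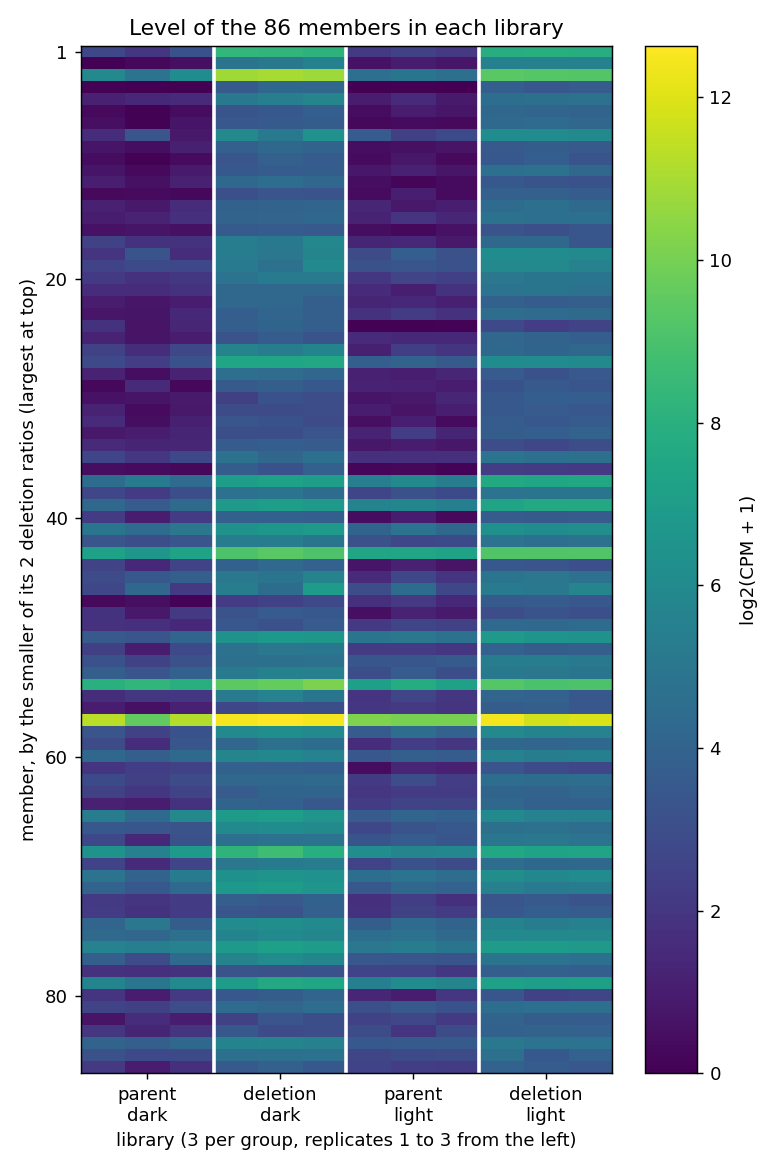
Level of each of the 86 members (rows, ordered by the smaller of the 2 deletion ratios) in each of the 12 libraries (columns), as log2(CPM + 1) by colour. Within each light condition the 3 deletion libraries are brighter than the 3 parent libraries in every row.

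TrB0082C had the highest ratio of the members in both conditions. Its dark parent libraries held 5.71, 3.01 and 8.14 CPM, and its dark deletion libraries 334, 322 and 291 CPM. In light the values were 3.50, 4.58 and 3.26 CPM in the parent and 230, 244 and 236 CPM in the deletion strain. The deletion libraries were thus close to each other and far above every parent library, at fitted log2 fold changes of 5.56 (SE 0.25) in darkness and 5.85 (SE 0.25) in light.

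TrC0922C combined a high ratio with many counts. Its level went from 60.4, 27.5 and 69.3 CPM in the dark parent to 1805, 2041 and 1758 CPM without tmk3. In light, parent libraries at 23.5, 28.7 and 24.4 CPM faced deletion libraries at 666, 636 and 618 CPM. The gene was lower in light in both strains, at light ratios of 0.50 in the parent and 0.34 in the deletion strain. The latter is close to the lower limit of 1/3. The fitted log2 deletion effects of TrC0922C were 4.91 (SE 0.24) in darkness and 4.53 (SE 0.23) in light.

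TrD0285W was near 0 in the parent. The dark parent libraries held 0.0641, 0.188 and 0.432 CPM of it, and the dark deletion libraries 28.5, 32.7 and 45.2 CPM. In light the parent held 0.508, 0.916 and 0.683 CPM, and the deletion strain 45.2, 44.4 and 46.1 CPM. The light libraries of the deletion strain agreed more closely than the dark ones, where replicate 3 was highest.

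TrA0235C was near 0 in the parent, with 1 count in darkness (in replicate 1) and 1 count in light (in replicate 2), over 3 libraries each. The deletion strain held 685 counts in darkness and 408 in light, or 10.9, 18.3 and 17.2 CPM and 12.8, 9.75 and 11.6 CPM. The ratio of the groups' total CPM was 713 in darkness, with a 95% exact Poisson interval of 127 to 28186, and 511 in light, with 91.1 to 20213. These intervals cover counting error only. The deletion ratios of 16.12 and 12.09 are smaller because 1 CPM is added to both sides.

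TrE1249W was the fifth gene with both ratios above 10. It went from 1.22, 1.63 and 1.94 CPM to 33.2, 40.6 and 52.8 CPM in darkness. In light it went from 1.02, 1.83 and 0.91 CPM to 22.6, 24.0 and 26.2 CPM. The groups were well apart in both conditions, at fitted log2 fold changes of 4.42 (SE 0.29) and 4.16 (SE 0.29).

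Low parent levels were found in other members too: in 13 genes, TrA0235C among them, both parent groups averaged under 1 CPM. In 24 members at least 1 parent library held under 10 counts, and in the other 62 all 6 parent libraries held at least 10. TrE0125C had 17 counts in darkness in the parent and 486 in the deletion strain, and 11 and 674 counts in light. TrA2099W had 14 and 499 counts in darkness and 6 and 128 in light. For TrC1244C the parent in light held 3 counts against 178 in the deletion strain, a ratio of 74.2 with a 95% exact Poisson interval of 25 to 363. Every member passed the filter on low counts (86 of 86), which their level in the deletion strain secured, since the lowest count of any member in any deletion library was 38.

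Other members with ratios near the top were TrC0457W, TrD0753C and TrD0284W. TrC0457W averaged 0.224 ± 0.14 CPM in the dark parent and 11.4 ± 2.39 CPM in the dark deletion strain, and 0.428 ± 0.301 and 10.5 ± 1.88 CPM in light (SD, n = 3). TrD0753C averaged 0.723 and 15.7 CPM in darkness and 0.498 and 11.1 CPM in light. In both, the spread within groups was small beside the difference between strains.

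**Figure D3:**
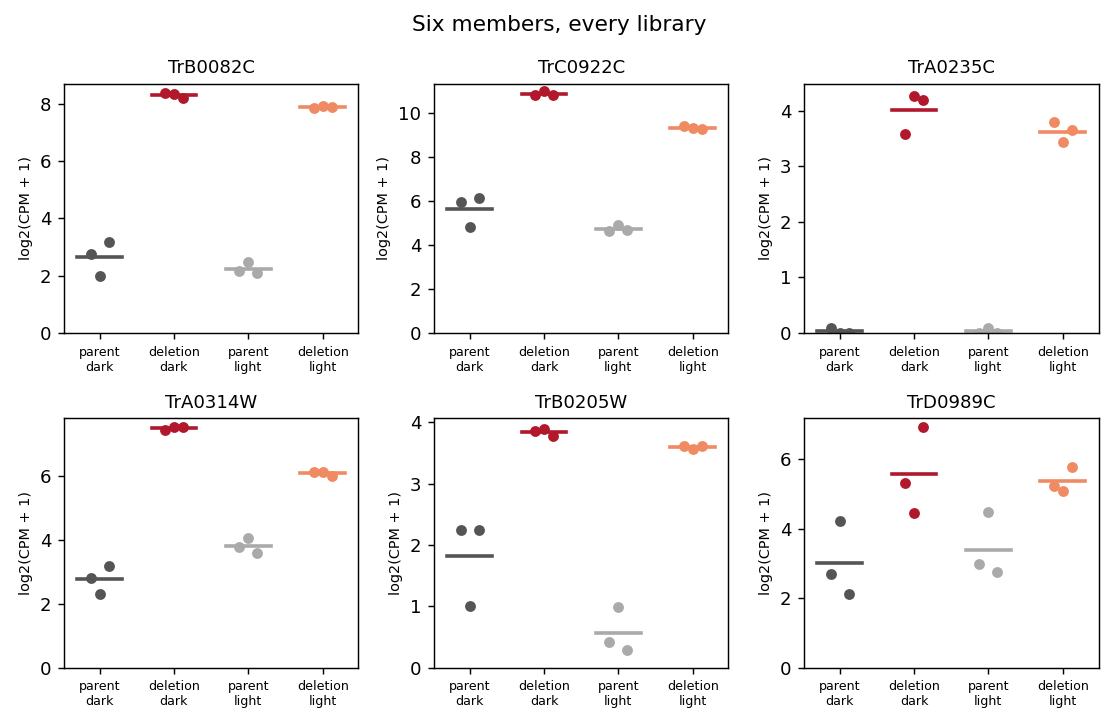
Levels of 6 members in every library as log2(CPM + 1), with points for the 3 libraries of a group and a line for their mean. TrB0082C, TrC0922C and TrA0235C differ between strains by similar amounts in darkness and light, TrA0314W more in darkness, TrB0205W more in light, and TrD0989C varies most between libraries.

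Apart from TrC0922C, the members named here for their high level, TrB1283W, TrC0360C, TrB1821C and TrD0166W, had smaller ratios. TrB0082C, with the highest ratios, is not in this list. Yet its dark deletion libraries held 13710 counts against 13698 for TrD0166W, and its light deletion libraries 8531 against 6102. TrB1283W, the member with most counts, stood at 2527, 771 and 2277 CPM in the dark parent and at 5616, 6345 and 5613 CPM in the dark deletion strain. In light it stood at 1178, 1046 and 1058 CPM in the parent and 5423, 3529 and 3971 CPM in the deletion strain. Replicate 2 of the dark parent was well below the other dark parent libraries, and its value lowers the group mean. The fitted log2 fold changes were 1.42 (SE 0.30) in darkness and 1.86 (SE 0.30) in light.

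TrC0360C went from 254, 317 and 249 CPM to 705, 792 and 1122 CPM in darkness and from 139, 222 and 148 CPM to 631, 505 and 542 CPM in light. TrB1821C went from 150, 96.3 and 158 CPM to 542, 678 and 554 CPM in darkness and from 178, 173 and 155 CPM to 596, 581 and 580 CPM in light. TrD0166W averaged 82 ± 34.6 and 317 ± 89.9 CPM in darkness and 60.6 ± 9.57 and 170 ± 10.6 CPM in light (SD, n = 3). None of these 3 genes had overlapping strain groups in either light condition. In all, 14 members had a highest group mean above 100 CPM, and 34 had one below 20 CPM.

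At the threshold itself, TrA1184W had a ratio of 2.5 in light, with 4.91, 3.87 and 3.79 CPM in the parent and 14.5, 11.6 and 9.90 CPM in the deletion strain. TrE0294W, TrG0591C, TrB0159C and TrB0193W followed with smaller ratios of 2.51, 2.52, 2.52 and 2.53. The call of TrB0193W in light was lost when any 1 of the 6 light libraries was left out (edgeR adjusted p between 0.0502 and 0.14). TrG0431C was just outside, with ratios of 5.54 in darkness and 2.47 in light. TrD0317C (2.39 and 2.54) and TrE1064W (3.55 and 2.39) were also not chosen. Genes on either side of the limit thus hardly differ in their values.

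Darkness gave the higher deletion ratio for 56 members and light for 30. The ratios of the 2 conditions lay within 1.5 times of each other for 58 members, were at least 1.5 times higher in darkness for 20 and at least 1.5 times higher in light for 8. The general shift of the scaling adds to the counts for darkness: in the TMM-scaled fit the deletion effect was larger in darkness for 48 of the 86. The highest group mean was that of the dark deletion strain for 50 members and that of the deletion strain in light for 36. An interaction of strain and light was called by edgeR for 13 members, 5 higher and 8 lower in light, a share close to the 14.1% of genes tested. With single libraries left out this count ran from 6 to 20, and 8 of the 12 libraries moved it by more than 1.5 times. Over all genes tested the interaction calls moved too, from 575 higher and 694 lower of 8998 with all 12 libraries. They were 387 and 531 of 9124 genes in the fit with 6 members called, and 900 and 1058 of 9126 in that with 20. The rule bounds the light ratios and so limits the difference between the deletion effects of the 2 conditions.

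TrA0314W showed the widest gap in favour of darkness, by the ratios and by the fit. Its libraries held 5.97, 3.95 and 8.14 CPM in the dark parent and 169, 180 and 183 CPM in the dark deletion strain. In light they held 12.7, 15.4 and 10.9 CPM and 68.6, 67.6 and 62.9 CPM. The deletion ratios were 25.43 in darkness and 4.80 in light, as the parent was higher and the deletion strain lower in light. TrA0290W (10.12 and 3.16) and TrF0949C (7.38 and 2.72) had the same order.

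TrB0205W showed the widest gap in favour of light by these ratios. Its interaction call was kept in 6 of 17 alternative fits, and its fitted gap of 2.31 on the log2 scale was smaller than the 3.04 of TrC1244C, which had 3 counts in the parent in light. The dark parent held 3.72, 1.0 and 3.74 CPM and the dark deletion strain 13.5, 13.8 and 12.7 CPM. In light the parent held 0.339, 0.986 and 0.228 CPM, and the deletion strain 11.2, 10.9 and 11.3 CPM. The deletion strain was thus steady across light while the parent was lower in light, and the deletion ratios were 3.75 and 8.0. TrE1208W (4.07 and 8.05) and TrB0441W (3.42 and 6.63) also had their higher ratio in light.

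Within the limits of the rule, members could still differ between light and darkness. The light ratio of the 86 ran from 0.37 to 2.86 in the parent, with a median of 0.99, and from 0.34 to 2.05 in the deletion strain, with a median of 0.84. In the parent 39 members were called for light, 17 higher and 22 lower, beside 47.5% of genes tested. Fitted to the parent libraries alone 22 were called, with 11 members not tested there, beside 1305 higher and 1652 lower of 8548 genes. In the deletion strain 31 were called, 11 higher and 20 lower, beside 38.7%. Fitted to the deletion libraries alone 54 were called, beside 2231 higher and 2398 lower of 8621 genes. Without replicate 2 of the dark parent 50 were called, beside 1925 and 2540 of 9126 genes. Without replicate 2 of the light deletion libraries 18 were called, beside 1091 and 1461 of 9166 genes. The calls over all genes, 1590 and 1895 of 8998 in the fit of all 12 libraries, thus moved in the same directions. In neither strain were 32 members called, and in both strains 16. The matching shares of all genes tested were not counted, and the rule's condition on light bears on these counts. They are therefore no sign of how the members differ from other genes. The condition on light kept out 63 further genes that met the level and both fold conditions away from series ends. Of these, 37 had a parent light ratio of 1/3 or less and 7 had one of 3 or more. In the deletion strain these counts were 47 and 7.

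Spread between libraries of the same group was similar for members and other genes. The median SD of log2(CPM + 1) around the group means was 0.27 over the members and 0.25 over all genes tested, and the median biological coefficient of variation in the edgeR fit was 0.206 and 0.189. TrB1276W, TrD1211W and TrB0159C had the smallest spread of the members, though the 1 CPM added narrows the spread of genes near 0. Parent libraries of TrD1211W held between 3 and 10 counts, and those of TrB0159C between 143 and 243. TrB1276W read 1.92, 1.44 and 1.58 CPM in the dark parent and 11.6, 12.5 and 11.8 CPM in the dark deletion strain. For TrD1211W these values were 0.513, 0.627 and 0.504 CPM and 11, 11.6 and 10.6 CPM.

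The widest spread was that of TrD0989C. It read 5.45, 17.5 and 3.38 CPM in the dark parent and 38.4, 21.0 and 121 CPM in the dark deletion strain. In light it read 6.95, 21.1 and 5.69 CPM and 36.4, 32.8 and 53.4 CPM. In both parent groups replicate 2 was the highest library, and within each light condition the strains did not overlap. TrD0989C was the member not called in light, where the fit gave 1.77 on the log2 scale (SE 0.80, edgeR adjusted p = 0.151). In darkness its fitted value of 2.38 became 1.34 without replicate 3 of the deletion strain (edgeR adjusted p = 0.188), and its call was lost without any of 6 other libraries too (edgeR adjusted p between 0.0501 and 0.107). TrD0995C, 6 numbers further on, had a similar pattern in darkness, with 2.18, 9.21 and 0.792 CPM in the parent and 60.9, 33.7 and 83.9 CPM in the deletion strain. TrG0254C was also highest in replicate 2 among the dark parent libraries (2.76, 8.71 and 2.16 CPM) and highest in replicate 3 in the dark without tmk3 (40.3, 31.3 and 53.5 CPM).

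Single libraries stood apart over the members as a whole. Replicate 2 of the dark parent was the lowest dark parent library for 63 members (73.3%), against 66.2% of genes tested, by total-count CPM. Its median log2 deviation from the group mean was -0.31 over the members and -0.25 over all genes tested. It was thus low for genes in general and not for the members in particular. In the dark deletion strain, replicate 1 was the lowest library for 45 members (52.3%), against 31.5% of genes tested. Its median deviation from the group mean on the log2 scale was -0.09 over the members and -0.01 over all genes tested. In the parent in light, replicate 2 was the highest library for 60 members, against 49.4% of genes tested, and its median deviation was 0.20 over the members and 0.05 over all genes tested. Without it the members' median log2 fold change in light was 2.39 in place of 2.11, and the rule chose 93 genes, 81 of them among the 86. Without replicate 2 of the dark parent the rule chose 80 genes, 76 of them among the 86. Without replicate 1 of the dark deletion strain it chose 87, of which 85 were members, and with both left out it chose 85, of which 79 were.

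The rule was also applied without the 4 libraries of a replicate number, and the ratios were read in those 4. The members had been chosen with earlier results of these data known, and libraries of a group may be technical repeats. The shares below therefore describe how far libraries of a group are alike and are no independent test of the strain difference. No link between same-numbered libraries of different groups was assumed, so the numbers serve here as names. Without the libraries numbered 1 the rule chose 72 genes, and 65 of them (90.3%) reached a ratio of 2.5 in both conditions in the libraries left out. Among all genes with the same minimum level 2.55% did so. Without number 2 it was 59 of 88 (67%, against 1.81%), and without number 3 it was 65 of 92 (70.7%, against 2.08%). The median ratios in the libraries left out were 4.28, 6.22 and 4.49 in darkness and 5.47, 3.07 and 4.0 in light. A ratio above 1 in both conditions was found for 72 of 72, 85 of 88 and 92 of 92 genes. The 3 exceptions were not members, which follows from the choice, since membership uses the values of the libraries left out here. TrG0101C held 204 and 266 CPM in replicate 2 of the parent in darkness and light, against 4.30 and 51.1 CPM in the deletion strain. TrC0774W held 47.9 and 43.5 CPM there, against 4.09 and 4.12 CPM. TrD1109W held 20.1 against 6.56 CPM in darkness.

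Members were spread over all 7 letter series, with between 0.943% (7 of 742, series G) and 1.59% (14 of 882, series D) of the eligible identifiers of a series. W and C, read here as the strand, were equally frequent with 43 members each, beside 3426 and 3498 among eligible identifiers. Identifiers with consecutive numbers were assumed to be neighbours, since their form implies an order and no coordinates were given. A second member within 2 numbers was found for 15 of the 86, at 7 places, while 71 stood alone. By the mirrored rule 35 genes were lower without tmk3, and 2 of them had another such gene within 2 numbers. Within 10 numbers the counts were 19 of 86 and 6 of 35. A larger set has more chances of holding neighbours, so the shares of sets of 86 and 35 genes cannot be compared directly. The difference between these shares was not tested.

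The place with most members was TrD0282C, TrD0284W and TrD0285W. TrD0282C read 0.257, 0.313 and 0.216 CPM in the dark parent and 7.53, 9.10 and 8.55 CPM in the dark deletion strain, and 0.282, 1.06 and 0.303 CPM and 13.8, 13.7 and 11.8 CPM in light. TrD0284W read 0.257, 0.0627 and 0.360 CPM and 8.61, 10.2 and 12.7 CPM in darkness, and 0.339, 0.916 and 0.683 CPM and 18.1, 16.4 and 15.5 CPM in light. Among these 3 genes no parent library exceeded 1.06 CPM, while every deletion library held at least 7.53 CPM. TrD0283C between them held 1 count in each parent group, and 11 and 16 counts in the deletion groups in darkness and light. The flanking TrD0286C was not called, with mean levels of 563 and 612 CPM in darkness and 579 and 592 CPM in light (fitted change in darkness -0.16 on the log2 scale, edgeR adjusted p = 0.22). Further out, TrD0280C (0.57, edgeR adjusted p = 0.0237) and TrD0287W (2.99, edgeR adjusted p = 0.0128, from 4 to 40 counts) were called higher in darkness and not in light.

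**Figure D4:**
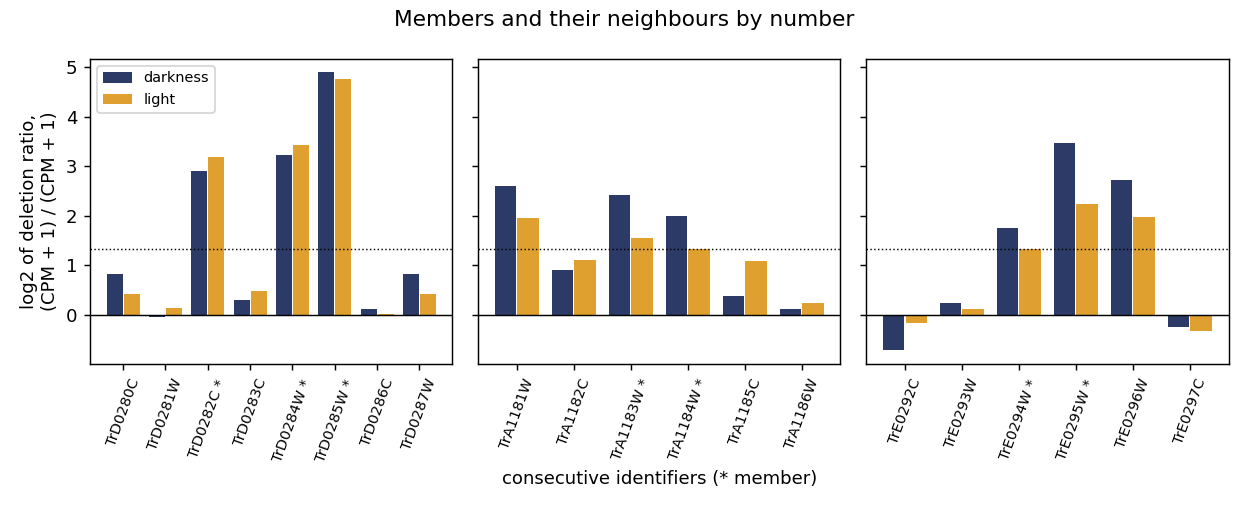
Deletion ratio on a log2 scale in darkness (blue) and light (yellow) for consecutive identifiers at 3 places that hold members, which carry an asterisk; the dotted line marks a ratio of 2.5. TrA1181W and TrE0296W exceed the line in both conditions without being members, TrD0286C lies near 0 and TrE0297C below 0.

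The other places were pairs with consecutive numbers. TrE0294W and TrE0295W were followed by TrE0296W, whose ratios were 6.58 and 3.91 but whose highest group mean of 7.86 CPM was under the minimum. TrE0295W went from 0.985 to 21.1 CPM in darkness and from 1.30 to 9.91 CPM in light. TrE0293W, directly before them, held between 1 and 9 counts per group and was not tested, and TrE0297C after them had a ratio of 0.85 in darkness. TrA1183W and TrA1184W lay beside TrA1182C (1.87 and 2.16) and TrA1181W, whose ratios of 6.04 and 3.88 met the fold condition and which reached 28.7 CPM in light. TrA1181W was left out because its level in the parent went from 0.945 to 6.64 CPM between darkness and light.

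TrA1101W averaged 1.12 CPM in the dark parent and 7.81 CPM in the dark without tmk3, and TrA1102W 1.55 and 16.8 CPM. TrE0125C and TrE0126W stood between the abundant TrE0124C, with ratios of 0.96 and 0.84, and TrE0127W, with 2.89 and 1.17. TrD0878C and TrD0879C were followed by TrD0880C, with few counts: 5 and 15 in darkness, and 3 and 28 in light, where it was called higher without tmk3 (3.26 on the log2 scale, edgeR adjusted p = 0.0135). TrD0881W after it had ratios of 3.56 in darkness and 0.71 in light. The pairs TrA1101W with TrA1102W, TrA1183W with TrA1184W, TrE0294W with TrE0295W and TrD0878C with TrD0879C carry the same strand letter, and TrA2098C with TrA2099W and TrE0125C with TrE0126W carry C then W. The sources used here do not say whether counting used the strand, so reads of overlapping neighbours may be shared.

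TrA2098C and TrA2099W lie just inside the limit for series ends. TrA2098C averaged 3.26 and 43.1 CPM in darkness and 1.35 and 15.0 CPM in light. TrA2100W, directly after the pair, had ratios of 1.82 in darkness and 0.64 in light. TrA2101C, next to it, held between 0 and 9 counts per group and was not tested. Beyond the limit, 4 genes met every other condition, and 3 of them lie further on in the same series. TrA2104C went from 142 to 404 CPM in darkness and from 53.6 to 193 CPM in light, TrA2107C from 3.06 to 22.7 and from 9.63 to 35.1 CPM, and TrA2108W from 17.6 to 49.6 and from 12.6 to 38.3 CPM. The fourth was TrE0049C, with 0.112 and 57.6 CPM in darkness and 2.19 and 52.9 CPM in light.

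Of the 157 identifiers directly beside a member that were not members themselves, 132 were tested. In darkness 46 of them (34.8%) were called higher without tmk3 and in light 31 (23.5%), and 25 (18.9%) in both conditions, where all genes tested gave 19.1%, 10.8% and 6.69%. Their median log2 fold changes were 0.02 in darkness and 0.17 in light. Of the 25, 9 reached a ratio of 2.5 in both conditions. TrD0165W, next to the member TrD0166W, had ratios of 21.15 and 3.95 and was kept out by a light ratio of 0.04 in the deletion strain. TrG0255W, next to TrG0254C, had 12.01 and 3.15 and a parent light ratio of 5.44. Genes beside each other are not independent, and no test was made of these shares.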

How the data were processed

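The values deposited by the authors are raw read counts for each gene model. Per the submitters' processing notes, the tools included HISAT2 2.2.1, and the series' design text names transcripts of the complete QM6a genome. Neither the counting settings nor the strand use is given in the sources used here. Per the labels' protocols, rRNA was depleted and a stranded kit was used. All 12 columns were assigned to samples by the label that carries the column name, and 0 were unused.

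CPM values divide counts by the column total. Counts were fitted in R 4.3.3 with edgeR 4.0.16: filterByExpr (8998 genes kept), TMM, 4 group means, quasi-likelihood F tests, Benjamini-Hochberg adjustment over all genes tested, and calls at an adjusted p below 0.05. The printed SE is the absolute log2 fold change over the square root of F, and it is unreliable near 0 counts. DESeq2 1.42.0 was an alternative. As a check of the code, the fit was run on counts simulated from its own dispersions, with changes set in the dark deletion group only. This check does not cover how well the fit suits these data. Intervals and floors (3 counts) cover counting error only.

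The members, the rule for the genes named (highest and lowest ratios, most counts, unequal ratios, runs, spread, overlap, parent level) and the tests were chosen with earlier results of these data known. Names of other neighbours and exceptions were picked after their values were seen. Leaving out replicate numbers together, and 2 libraries together, was added after seeing the data.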

Additional observations from a re-analysis of the deposited data

Results flagged for a closer look

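For 13 members edgeR's interaction test called a difference between the deletion effects of the light conditions, given here on the log2 scale as the effect in light minus that in darkness. The rule limits this difference through the light ratios, so the values describe the chosen genes. The effect was smaller in light for TrA0314W (-2.38), TrA0290W (-1.63), TrF0949C (-1.45), TrC0553W (-1.36), TrF0513W (-1.21), TrG1001C (-1.12), TrC0149C (-1.03) and TrG0216C (-0.74). It was larger in light for TrC1244C (3.04), TrB0205W (2.31), TrB1213C (1.58), TrE1208W (1.38) and TrB0053C (0.59). The value of TrC1244C rests on 3 counts in the parent in light and depends on the prior count, and its deletion ratios with 1 CPM added have the opposite order (5.84 in darkness and 5.59 in light). TrA0314W, TrG1001C, TrE1208W, TrC0553W and TrF0513W were called in 17 of 17 alternative fits, TrC1244C in 16, TrA0290W and TrF0949C in 13, TrG0216C in 9, TrB0205W and TrC0149C in 6, TrB1213C in 5 and TrB0053C in 4. With 3 libraries per group, no group was large enough for the search for single outlying libraries.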

How the results depend on the processing

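The count of members called higher was 85 or 86 of 86 in darkness and between 82 and 85 in light when each library was left out in turn, and the medians of the log2 fold changes ran from 2.5 to 2.6 and from 2.02 to 2.39. The median interaction ran from -0.13 to 0.09, so its main value of -0.06 has no steady sign. Interaction calls ran from 6 to 20 in place of 13: 20 and 8 without replicates 2 and 1 of the dark parent, 6 and 7 without replicates 2 and 3 of the dark deletion strain, 8 without replicate 1 of the light parent, and 8, 7 and 8 without replicates 1, 2 and 3 of the deletion strain in light. Over all genes tested these calls rose without replicate 2 of the dark parent, to 900 higher and 1058 lower from 575 and 694. They fell in each of the other fits named. Calls for light ran from 28 to 45 in the parent and from 18 to 50 in the deletion strain, and fitted to the compared groups alone they were 22 (with 11 members untested) and 54. In the fits that gave these values, calls for light over all genes tested moved in the same direction as those of the members. The rule chose between 77 and 93 genes with a library left out, 131 at a fold of 2, 36 at a fold of 4 and 52 at a level of 20 CPM. With DESeq2 size factors it chose 66, of which 65 were members.

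No pairing by replicate number was used in the main fit. Of 18 correlations of same-numbered deviations, 5 exceeded 0.1, and the 18 ran from -0.478 to 0.239. Between darkness and light within a strain, replicates 1, 2 and 3 gave -0.032, 0.165 and 0.119 in the parent. In the deletion strain they gave -0.099, 0.158 and 0.239. Whether same-numbered libraries of a strain are linked was not tested. With the replicate block, 85 members were called in darkness, 85 in light and 9 for the interaction, and TrD0989C lost its call in darkness (edgeR adjusted p = 0.0525). Over all genes that fit called 1601 higher in darkness, 823 higher in light, and 418 higher and 540 lower for the interaction. Among 62 fold changes of named members, 0 of 1116 alternative values reversed and 16 lost the call, all for TrD0989C in darkness, TrB0193W in light and TrD0995C in light. TrB0193W in light ranged from 1.23 to 1.55 in these fits, and TrD0995C had 2.93 where replicate 3 of the light parent was left out. Scaled by total count alone, calls over all genes split into 2192 higher and 1882 lower for light in the parent (1868 and 2404 with TMM) and into 345 and 715 for the interaction (575 and 694). Genes with few parent counts limit the precision of the largest folds.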
